A study of Homo sapiens with 12 samples.

Results

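The 10 genes of bile acid metabolism listed here were followed in Huh7 cells treated with Molidustat: 3 enzymes of bile acid synthesis (CYP7A1, CYP8B1 and CYP27A1), 2 enzymes of bile acid activation and conjugation (SLC27A5 and BAAT), 3 transporters of the hepatocyte membrane (SLC10A1, ABCB11 and ABCB4) and 2 nuclear receptors that control them (NR1H4, which encodes FXR, and NR0B2, which encodes SHP). They were taken by name, for their known functions, from the 60666 genes of the count tables, and all 10 were found. Huh7 is an established human hepatoma cell line, and it is the only cell line in the data. Molidustat inhibits the prolyl hydroxylases that mark hypoxia-inducible factors for destruction, so that these factors accumulate although oxygen is present. Cells were grown in high-glucose medium with fetal calf serum and received either Molidustat at 25 µM or its solvent DMSO alone, for 24 h or 48 h, which gave 4 groups of 3 libraries (12 libraries in all). The study's methods call the 3 samples of a group biological replicates, and all of them are cultures of this cell line.

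In hepatocytes, bile acids are made from cholesterol by a classic route that CYP7A1 opens and an alternative route that CYP27A1 opens, while CYP8B1 adds the hydroxyl group that sets the amount of cholic acid. SLC27A5 then activates bile acids with coenzyme A, BAAT joins them to glycine or taurine, ABCB11 pumps the product into the canaliculus beside the phospholipids moved by ABCB4, and SLC10A1 brings bile acids back from the portal blood. FXR is the nuclear receptor that binds bile acids, and its best-known target in the liver is NR0B2, whose product SHP has no DNA-binding domain and represses other receptors, among them those that drive CYP7A1 and CYP8B1.

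The libraries were made from the 3′ ends of transcripts, and reads were counted per gene. A library held between 1499273 and 9179389 counts on genes. DMSO 48 h replicate 2 was the smallest and stood apart from the other libraries: 50.4% of its reads lay outside annotated genes (17.1% to 25.6% in the other 11), its TMM scaling factor was 0.629 (1.01 to 1.08 in the other 11), and its correlation with any other library did not pass 0.782. Values without it are therefore given for the tested members and for several other genes. Levels are given as CPM, a gene's counts for every 1000000 counts of the library, scaled by TMM, and are compared between libraries. Where a gene is named as the most abundant of a list, it had the highest mean CPM over the 12 libraries, a rank of 3′ tag counts used only to choose which genes to name. A gene was called where the adjusted p was under 0.05 and the change exceeded 1 on the log2 scale, in edgeR's quasi-likelihood test fitted on all 12 libraries and adjusted (Benjamini-Hochberg) over the 14274 genes that passed a filter on low counts.

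The response to the drug was checked first on 8 genes induced by hypoxia, 7 of which were tested. BNIP3, a mitochondrial receptor for mitophagy, lay between 103 and 207 CPM in the 6 DMSO libraries and between 975 and 1232 CPM in the 6 Molidustat libraries. Averaged over both times, its log2 fold change was 2.74 (SE 0.24, adjusted p = 1.36e-05 by edgeR). PGK1, a glycolytic enzyme, rose by 2.39 (adjusted p = 6.9e-05), PDK1, a kinase that inactivates pyruvate dehydrogenase and so keeps pyruvate from the citric acid cycle, by 2.62 (adjusted p = 0.00826), and NDRG1, a stress-response gene, by 2.36 (adjusted p = 0.00768). Thus 4 of the 7 tested genes were called higher in the averaged contrast and none lower, and the drug's label matched the libraries.

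Hepatocyte transcripts were present throughout. All 8 hepatocyte markers (ALB, AFP, APOA1, APOB, TTR, SERPINA1, TF and HNF4A) had counts and passed the filter, with AFP the most abundant of them, at 3908 to 10323 CPM. VWF of endothelium, ACTA2 of myofibroblasts, and FABP2 and MUC2 of the intestine had no count in any library. LYZ was the most abundant of 10 markers of other liver cells (42.9 to 232 CPM), SOX9 of 6 cholangiocyte markers (106 to 1048 CPM, the highest in DMSO 48 h replicate 2) and VIL1 of 5 intestinal markers (21.6 to 57.5 CPM). In Molidustat 48 h, CDX2, an intestinal transcription factor, exceeded VIL1 (44.2 to 48.7 against 29.9 to 33.5 CPM). CDX2 was higher than in DMSO 48 h (3.19 to 26.4 CPM) without overlap, as were 9.96% of all tested genes. Its log2 fold change at 48 h was 1.32 (adjusted p = 0.256 by edgeR), and 0.90 without DMSO 48 h replicate 2 (adjusted p = 0.623). At 24 h it was lower without overlap (-0.61, adjusted p = 0.999), as were 5.02% of all tested genes. CDX2 is named here after its values were seen. The other tested intestinal markers, VIL1 (-0.42) and LGR5 (-1.11), had negative values at 48 h, with overlap. The label of a hepatocyte-derived line therefore held, while several genes that define bile acid handling in the adult hepatocyte were missing, as follows.

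CYP7A1 (ENSG00000167910), CYP8B1 (ENSG00000180432), ABCB11 (ENSG00000073734) and SLC10A1 (ENSG00000100652) had no count in any of the 12 libraries. Together the libraries held 56468708 counts. A count of 0 allows each of these genes up to 0.0516 CPM over the series (3 counts of the total, counting error only). Within a single group the same limit is 0.167 to 0.254 CPM. The rate-limiting enzyme of the classic route, the sterol 12α-hydroxylase, the bile salt export pump and the sodium-dependent uptake carrier were thus not detectable at this depth, with or without Molidustat and at either time. ACKR2, on the opposite strand, shares 142 of the 4174 exonic bases of CYP8B1. The strand setting of the counting is not given in the sources used here, so for CYP8B1 these limits do not cover reads from the shared bases. A count of 0 was not rare in these tables: 4637 of 19928 protein-coding genes (23.3%) also had no count in any library. The other 6 members had at least 1 count, and their 3428 counts were divided among CYP27A1 (1930), NR1H4 (793), NR0B2 (443), ABCB4 (212), SLC27A5 (45) and BAAT (5). The first 4 of them passed the filter on low counts and were tested.

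**Figure D1:**
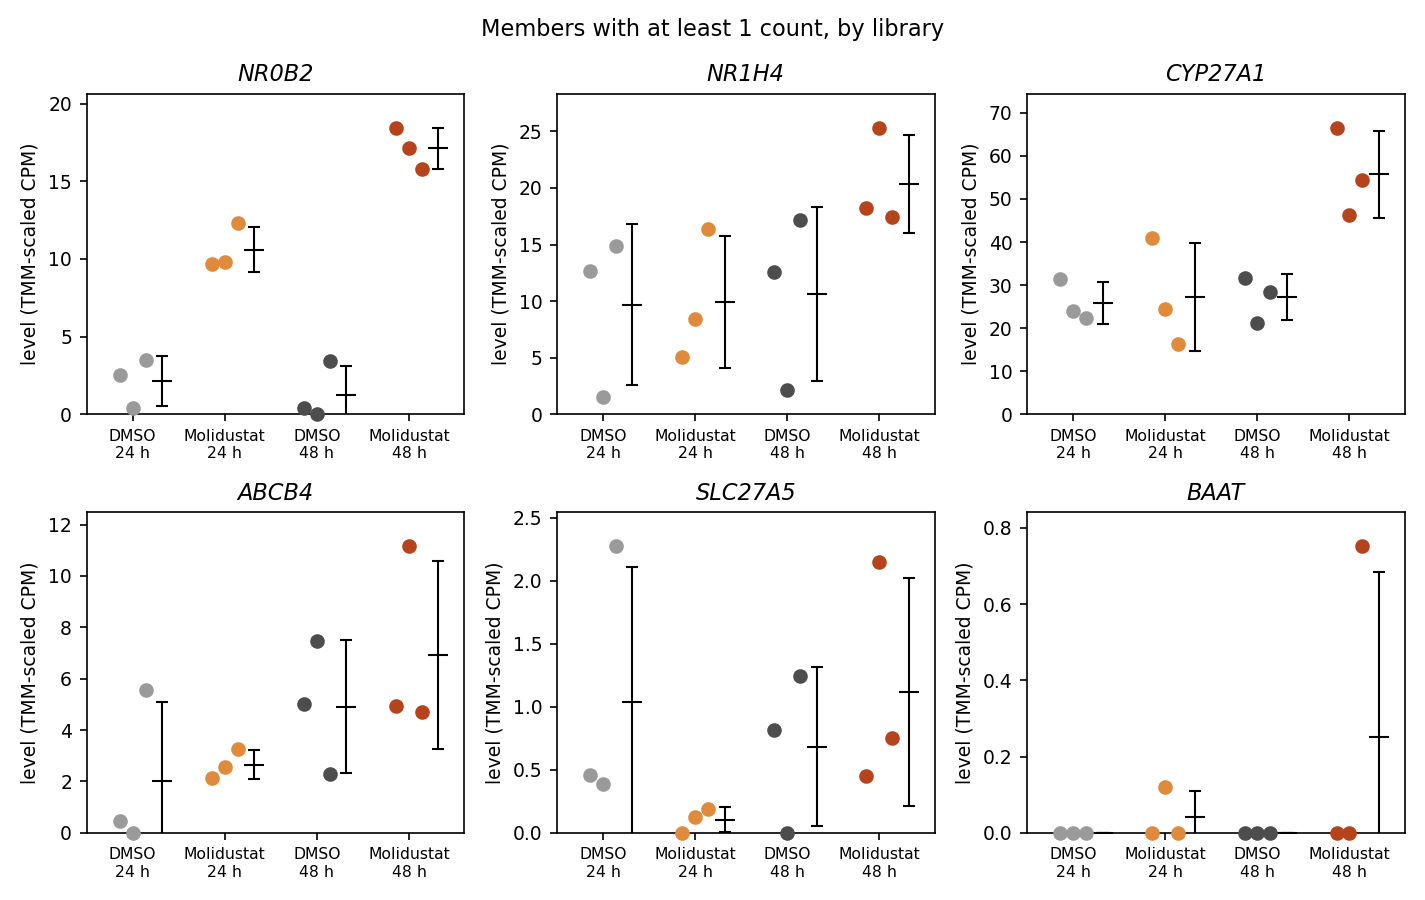
Levels of the 6 members with at least 1 count (y axes, TMM-scaled CPM, each from 0) in the 3 libraries of each group (coloured points), with the mean and SD beside them (black; bars are cut at 0). The 6 Molidustat libraries sit above the 6 DMSO libraries for NR0B2, whereas for CYP27A1 and NR1H4 the Molidustat libraries sit above DMSO at 48 h and overlap with DMSO at 24 h.

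Among the nuclear receptors, NR0B2 (ENSG00000131910; GRCh38, chromosome 1, 26911489 to 26913975, minus strand), the gene of the repressor SHP, was higher in the cells given Molidustat at both times. At 24 h the 3 DMSO libraries stood at 2.53, 0.385 and 3.51 CPM (11, 1 and 17 counts) and the 3 Molidustat libraries at 9.68, 9.83 and 12.3 CPM (27, 81 and 64 counts). At 48 h the DMSO libraries stood at 0.407, 0 and 3.41 CPM (3, 0 and 33 counts) and the Molidustat libraries at 18.4, 17.2 and 15.8 CPM (82, 40 and 84 counts). The lowest Molidustat library was above the highest DMSO library at each time, so the groups did not overlap. Such a separation upwards was found at 24 h for 7.26% of all tested genes, at 48 h for 9.96%, and at both times for 2.2% (314 genes). The library at 0 was DMSO 48 h replicate 2, in which a count of 0 allows up to 3.19 CPM, a limit above 3 of the other 5 DMSO libraries and below the other two (3.41 and 3.51 CPM).

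The group means of NR0B2 were 1.27 ± 1.86 CPM in DMSO 48 h, 2.14 ± 1.60 in DMSO 24 h, 10.6 ± 1.47 in Molidustat 24 h and 17.1 ± 1.32 in Molidustat 48 h (SD, n = 3 each). In that order the DMSO groups overlapped. The Molidustat groups did not overlap, but the difference between them (log2 fold change 0.69, SE 0.75) did not pass the test (adjusted p = 1.0 by edgeR), nor did that between the DMSO groups (-0.47, SE 0.84, adjusted p = 0.944).

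With treatment averaged over both times, the log2 fold change of NR0B2 was 2.81 (SE 0.58, 95% confidence interval 1.57 to 4.05), a 7.03-fold higher level, with an adjusted p of 0.0269 by edgeR. It was thus called, and it was the only member called in any comparison by that test. In this averaged contrast 0.96% of the tested genes were called higher (137 genes) and 0.0701% lower (10 genes). At 24 h alone its log2 fold change was 2.23 (SE 0.81, 95% confidence interval 0.52 to 3.95, adjusted p = 0.681 by edgeR), and at 48 h alone 3.39 (SE 0.85, 1.59 to 5.19, adjusted p = 0.153 by edgeR). Neither passed the threshold, where 0.231% of all genes were called higher and 0.0% lower at 24 h, and 0.21% higher and 0.021% lower at 48 h. The response did not differ detectably between the times (interaction 1.16, 95% confidence interval -1.23 to 3.54, adjusted p = 0.887 by edgeR). No gene was called for the interaction (0.0%) or between the Molidustat groups (0.0%), and 1 gene between the DMSO groups (0.00701%). At an unadjusted p under 0.05, 968 genes passed for the interaction, 654 between the Molidustat groups and 217 lower with Molidustat at 24 h, and DESeq2 called 4, 12 and 12 genes there.

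The 48 h call of NR0B2 depended on the test. DESeq2 on the same 12 libraries gave a log2 fold change of 3.44 (adjusted p = 0.0045), in a contrast in which it called 1.25% of the genes it tested as higher. limma-voom with sample quality weights gave 3.39 (adjusted p = 0.00494) and called 1.71% of genes as higher, and edgeR without the filter on low counts gave 3.35 (adjusted p = 0.00276) and called 0.542%. Without DMSO 48 h replicate 2, edgeR gave 3.11 at 48 h (adjusted p = 0.167) and 2.67 averaged over both times (adjusted p = 0.012). The averaged edgeR call, in turn, was lost in most fits with a library left out. When each library was left out in turn, the log2 fold change stayed between 2.54 and 3.89, and the adjusted p ran from 0.00525 to 0.0826. It stayed under 0.05 in 3 of the 12 fits: without Molidustat 24 h replicate 1, without DMSO 48 h replicate 2 and without DMSO 48 h replicate 3. Without DMSO 48 h replicate 3, the DMSO library with most counts of this gene at that time, the log2 fold change at 48 h became 5.55 (adjusted p = 0.0362 by edgeR), in a fit that called 0.308% of genes as higher.

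**Figure D2:**
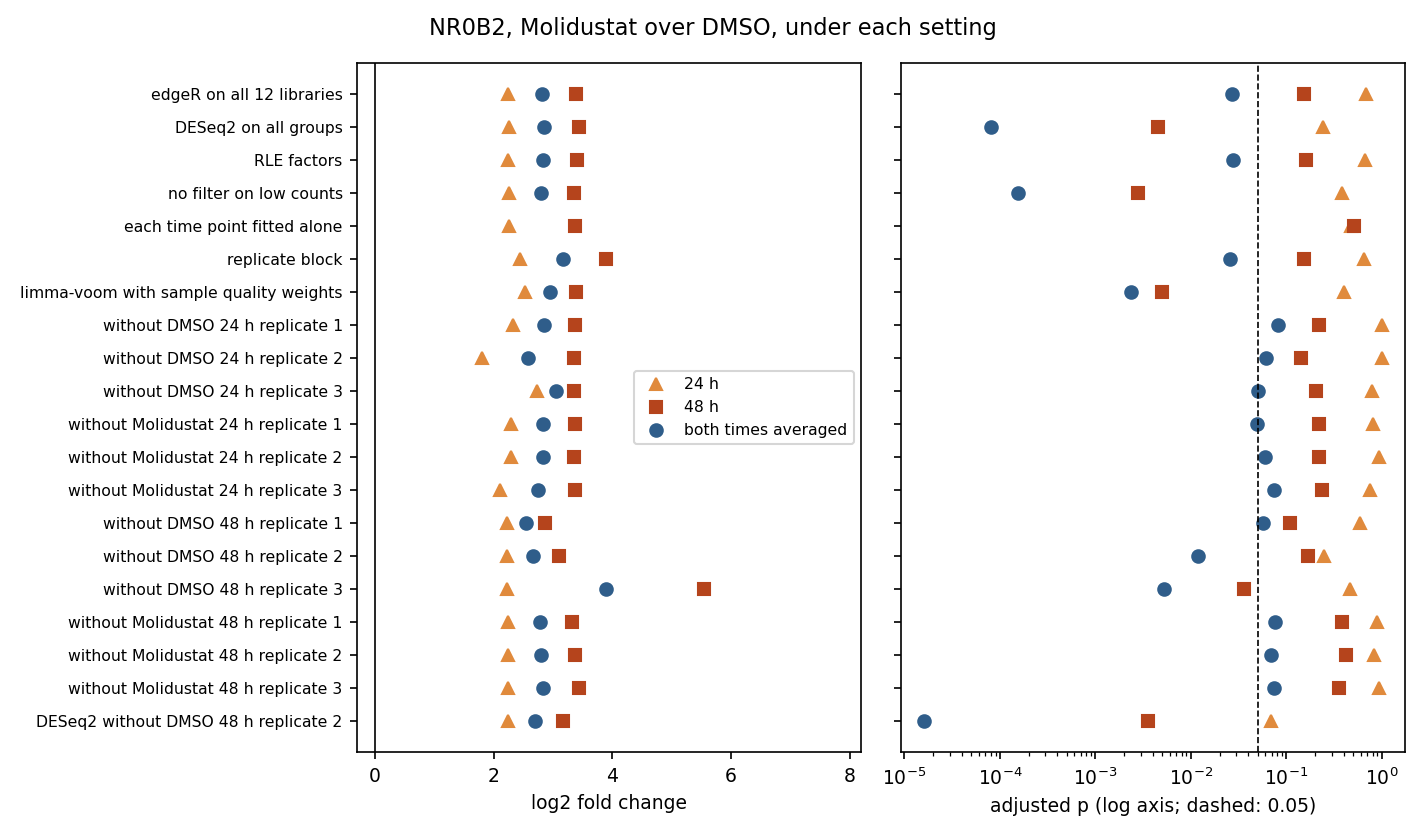
Log2 fold change of NR0B2, Molidustat over DMSO (left), and its adjusted p on a log axis (right; the dashed line marks 0.05), under each test, scaling and set of libraries (rows), at 24 h (triangles), at 48 h (squares) and averaged over both times (circles). All log2 fold changes lie between 1.80 and 5.55, above 0, while the adjusted p falls on either side of 0.05.

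NUDC, which encodes a protein of the dynein machinery, lies across NR0B2 on the opposite strand but shares none of its exonic bases. NUDC stood at 174 to 267 CPM in DMSO 24 h, 91.9 to 229 in Molidustat 24 h, 183 to 257 in DMSO 48 h and 172 to 226 in Molidustat 48 h, so its libraries overlapped between treatments at both times.

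NR1H4 (ENSG00000012504; chromosome 12, 100473708 to 100564414, plus strand), the gene of FXR itself, varied widely among control libraries. At 24 h the DMSO libraries stood at 12.6, 1.54 and 14.9 CPM and the Molidustat libraries at 5.02, 8.38 and 16.3 CPM. At 48 h the DMSO libraries stood at 12.6, 2.13 and 17.2 CPM (93, 2 and 166 counts) and the Molidustat libraries at 18.2, 25.3 and 17.5 CPM (81, 59 and 93 counts). The groups overlapped at 24 h, and at 48 h the lowest Molidustat library was barely above the highest DMSO library. The log2 fold change was 0.02 at 24 h (SE 0.71, 95% confidence interval -1.48 to 1.53, adjusted p = 0.999 by edgeR) and 0.83 at 48 h (SE 0.71, -0.67 to 2.33, adjusted p = 0.685). Without DMSO 48 h replicate 2, the value at 48 h was 0.43 (adjusted p = 0.993). Without DMSO 48 h replicate 3, it was 1.28. Averaged over both times the log2 fold change was 0.42 (95% confidence interval -0.64 to 1.48, adjusted p = 0.81 by edgeR). With a library left out, this averaged value ran from 0.13 (without Molidustat 24 h replicate 3) to 0.65 (without DMSO 48 h replicate 3).

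Among the synthesis enzymes, CYP27A1 (ENSG00000135929; chromosome 2, 218781749 to 218815293, plus strand), the mitochondrial sterol 27-hydroxylase of the alternative route, was the only member with counts. Its levels were 31.5, 23.9 and 22.3 CPM in DMSO 24 h and 40.9, 24.5 and 16.3 CPM in Molidustat 24 h. They were 31.7, 21.3 and 28.4 CPM in DMSO 48 h and 66.5, 46.3 and 54.3 CPM in Molidustat 48 h. Hence 3 groups shared a range of 16.3 to 40.9 CPM, and the Molidustat 48 h libraries lay above it. The group means were 25.9 ± 4.90, 27.2 ± 12.5, 27.1 ± 5.33 and 55.7 ± 10.2 CPM (SD, n = 3 each), in the same order. At 48 h the log2 fold change was 1.02 (SE 0.37, 95% confidence interval 0.23 to 1.81), a 2.03-fold higher level whose unadjusted p of 0.0147 became 0.247 after adjustment over all genes in edgeR. At 24 h it was 0.06 (SE 0.37, -0.72 to 0.85, adjusted p = 0.999). The difference between these responses, 0.96 (SE 0.52), did not pass the test either (adjusted p = 0.805), nor did the difference of Molidustat 48 h from Molidustat 24 h (1.04, SE 0.37, adjusted p = 1.0). The change at 48 h was 0.88 without DMSO 48 h replicate 2 (adjusted p = 0.67).

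Of the conjugation enzymes, SLC27A5 (ENSG00000083807; chromosome 19, 58479512 to 58512413, minus strand), the bile acid CoA ligase, had 2, 1 and 11 counts in DMSO 24 h and 0, 1 and 1 in Molidustat 24 h. It had 6, 0 and 12 counts in DMSO 48 h and 2, 5 and 4 in Molidustat 48 h. At 24 h the DMSO libraries (0.459, 0.385 and 2.27 CPM) were above the Molidustat libraries (0, 0.121 and 0.192 CPM) without overlap, as were 5.02% of the tested genes. The library at 0 was Molidustat 24 h replicate 1, where a count of 0 allows up to 1.08 CPM, above 0.459 and 0.385 CPM. This separation was therefore not established. At 48 h the groups overlapped. In a fit without the filter its log2 fold change was -2.92 at 24 h (SE 1.95, adjusted p = 0.924 by edgeR) and 0.41 at 48 h (SE 1.79, adjusted p = 1.0). When DMSO 48 h replicate 2 was left out it passed the filter, with -2.94 at 24 h (SE 1.67, adjusted p = 0.636) and 0.05 at 48 h (SE 1.65, adjusted p = 0.999). ZNF446, a zinc finger gene on the opposite strand, shares 1131 of the 8025 exonic bases of SLC27A5, and the strand setting of the counting is not given in the sources used here, so these few counts are uncertain. BAAT (ENSG00000136881; chromosome 9, 101354182 to 101385400, minus strand), which joins bile acids to glycine or taurine, had 1 count in Molidustat 24 h replicate 2 and 4 in Molidustat 48 h replicate 3, and none in the other 10 libraries. At this depth no difference in BAAT could be read.

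Of the transporters, ABCB4 (ENSG00000005471; chromosome 7, 87401696 to 87480435, minus strand), the canalicular phospholipid floppase, was the only member with counts. It stood at 0.459, 0 and 5.58 CPM in DMSO 24 h and 2.15, 2.55 and 3.27 CPM in Molidustat 24 h. It stood at 5.02, 7.45 and 2.27 CPM in DMSO 48 h and 4.94, 11.2 and 4.70 CPM in Molidustat 48 h. The groups overlapped at both times. The log2 fold change was 0.34 at 24 h (95% confidence interval -1.89 to 2.58) and 0.55 at 48 h (-1.68 to 2.77), with adjusted p-values of 0.999 and 0.878 by edgeR, and these intervals leave room for a large change in either direction. Single libraries moved these values widely. The value at 48 h was 0.90 without DMSO 48 h replicate 2 (adjusted p = 0.989), and without Molidustat 48 h replicate 2 it was 0.03, the lowest of the 12 fits with a library left out. Averaged over both times it was 0.45, with 0.19 without DMSO 24 h replicate 2 and 1.86 without DMSO 24 h replicate 3 (adjusted p = 0.431) as the extremes of such fits.

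For each of the 4 tested members the 3 Molidustat 48 h libraries lay above the 3 Molidustat 24 h libraries, a feature noticed after the values were seen. This held for 7.15% of all tested genes and for 3 of the 8 hepatocyte markers. For none of the 4 did this difference pass the test (adjusted p = 1.0 for each by edgeR), and the log2 fold changes were 0.69 for NR0B2, 1.02 for NR1H4, 1.04 for CYP27A1 and 1.35 for ABCB4. In Molidustat against DMSO at 48 h, 3 of the 4 (NR0B2, NR1H4 and CYP27A1) were higher without overlap, and none was lower, against 9.96% and 8.02% of all tested genes. The median log2 fold change of the 4 was 0.20 at 24 h, 0.92 at 48 h and 0.49 averaged, where the medians over all tested genes were 0.02, 0.01 and -0.01.

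**Figure D3:**
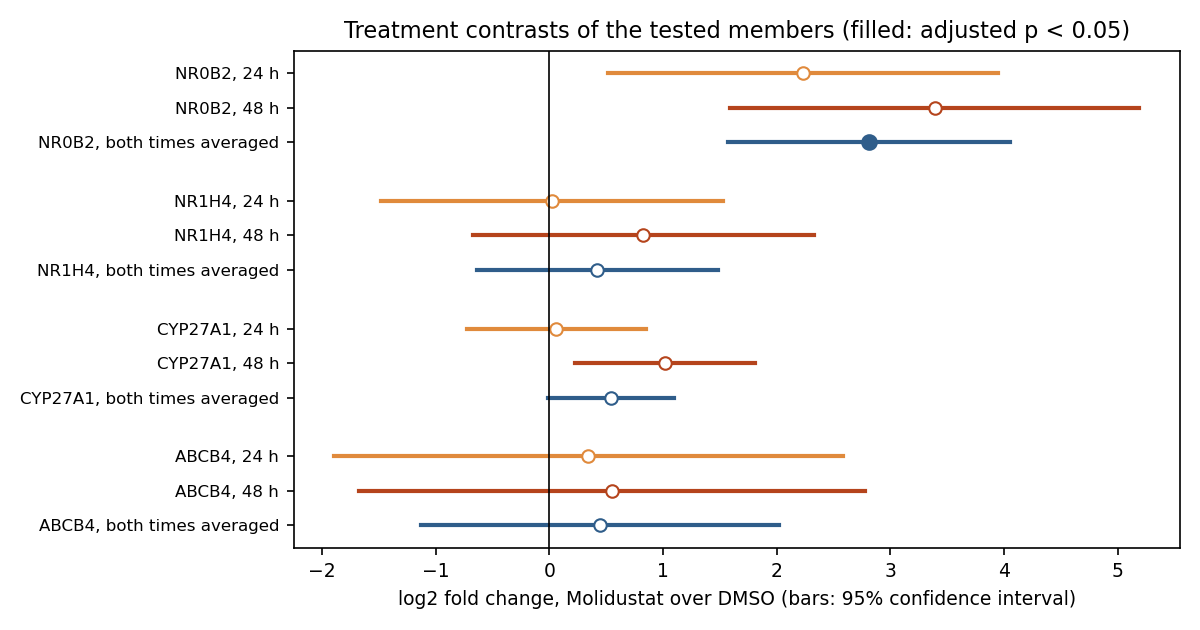
Log2 fold change of the 4 tested members, Molidustat over DMSO (x axis; points), with 95% confidence intervals (bars), at 24 h, at 48 h and averaged over both times (rows). The only filled point, an adjusted p under 0.05 by edgeR, is that of NR0B2 averaged over both times, and the intervals of NR1H4 and ABCB4 all span 0.

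The wider pathway was described by 4 further lists, whose median averaged log2 fold changes are given below. When DMSO 48 h replicate 2 was left out, these medians were 0.01 for the synthesis enzymes (12 tested in that fit, 10 in the main fit), 0.24 for the transporters, -0.09 for the regulators and 0.33 for the FXR targets. None of their genes was called by edgeR in a treatment contrast at 24 h, at 48 h or averaged. At an unadjusted p under 0.05, the averaged contrast had 1 higher synthesis enzyme (AKR1D1), 3 lower transporters (ABCG8, ABCC4 and SLC51A), 1 higher regulator (NR5A2), and 3 higher (C3, APOC2 and FGB) and 3 lower FXR targets (SULT2A1, SLC51A and SDC1), with SLC51A counted both as a transporter and as an FXR target. Of all tested genes, 5.79% were higher and 5.24% lower at that p in the fit on all 12 libraries. No such share is given here for the fit without DMSO 48 h replicate 2. When DMSO 48 h replicate 2 was left out, SULT2A1 was the only lower FXR target at that p, ABCG8 and ABCC4 were the only lower transporters, KLB joined NR5A2 among the higher regulators, and the higher FXR targets were again C3, APOC2 and FGB. SDC1, a syndecan, reached its highest level in DMSO 48 h (873 CPM, against a median of 177 CPM there), and its averaged value of -0.97 was -0.34 without that library. Of 14 other synthesis enzymes, 10 were tested. Their median log2 fold change was -0.02 at 24 h (4 positive and 6 negative) and 0.48 at 48 h (9 positive and 1 negative). The median at 48 h was 0.21 without DMSO 48 h replicate 2, in a fit in which 12 of the 14 were tested, so these medians cover different sets of genes. Averaged over both times, the median was 0.10. AKR1D1, the Δ4-3-oxosteroid 5β-reductase that gives bile acids their bent ring system, had the highest value of them (2.26, SE 0.68, adjusted p = 0.185 by edgeR). At 24 h its DMSO libraries stood at 0, 5.01 and 2.27 CPM and its Molidustat libraries at 15.1, 4.86 and 3.65 CPM, with overlap. At 48 h they stood at 3.25, 3.19 and 1.34 CPM against 8.31, 20.6 and 23.3 CPM, without overlap. DESeq2 called AKR1D1 in the averaged contrast (2.26, adjusted p = 0.0266), as it did 1.67% of the genes it tested. ACOT8, a peroxisomal thioesterase, had an averaged value of 0.47 (adjusted p = 0.538), and SCP2, the peroxisomal thiolase and sterol carrier with the highest level of the list (181 to 299 CPM), a value of 0.08 (adjusted p = 0.928). CH25H, a cholesterol 25-hydroxylase, had no count.

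Of 15 other bile acid and canalicular transporters, 12 were tested, with a median averaged log2 fold change of 0.04. ABCG8, a sterol exporter, had the lowest averaged value (-3.52, SE 1.21, adjusted p = 0.273 by edgeR). Its DMSO 48 h libraries stood at 3.66, 5.32 and 2.17 CPM and its Molidustat 48 h libraries at 0, 0.429 and 0 CPM, which did not overlap, whereas at 24 h 0, 1.54 and 2.07 CPM stood against 0, 0.607 and 0. SLCO1B1, a sodium-independent uptake carrier, had an averaged value of -1.61 (SE 1.45, adjusted p = 0.728), which was 0.54 without DMSO 48 h replicate 2. ABCC2, the canalicular conjugate pump with the highest level of the list, had a value of 0.00 (95% confidence interval -0.66 to 0.66). ABCC4, described here after its values were seen, had the lowest adjusted p of the list in the averaged contrast (-1.31, SE 0.45, adjusted p = 0.2615 by edgeR). It was lower without overlap at 24 h and at 48 h, as were 5.02% and 8.02% of all tested genes. SLC10A2, the intestinal counterpart of SLC10A1, had no count.

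Of 18 partners and regulators of these genes, 14 were tested, with a median averaged log2 fold change of -0.03. PPARGC1A, a coactivator of nuclear receptors, had a value of 1.62 (SE 1.09, adjusted p = 0.613 by edgeR) on at most 7.45 CPM. Its value at 48 h was -0.13, and 1.33 without DMSO 48 h replicate 2 (adjusted p = 0.985), where its level was highest. HNF4A, a receptor on which many hepatocyte genes depend, was the most abundant of the list and had a value of -1.06 (SE 0.57, adjusted p = 0.511). Its DMSO libraries ran from 70.5 to 1237 CPM, with the highest value in DMSO 48 h replicate 2, and its value was -0.14 without that library. GPBAR1, the membrane receptor for bile acids, had no count.

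The 16 other known FXR target genes were all tested. In the averaged contrast 11 had a positive and 5 a negative log2 fold change, with a median of 0.23, and none was called. SULT2A1, the sulfotransferase of bile acids and steroids, had the lowest value (-1.55, SE 0.49, adjusted p = 0.211 by edgeR). It stood at 18.6, 24.7 and 37.4 CPM in DMSO 24 h against 0.717, 6.55 and 19.8 CPM in Molidustat 24 h, and at 30.2, 64.9 and 40.4 CPM in DMSO 48 h against 7.64, 17.2 and 20.3 CPM in Molidustat 48 h. The groups did not overlap at 48 h. SLC51A, a subunit of the basolateral bile acid exporter, also had a value of -1.55 (SE 0.71, adjusted p = 0.437), which was -0.74 without DMSO 48 h replicate 2, where its level was 21.3 CPM against 0.940 to 3.51 CPM elsewhere. FGB, the fibrinogen β chain and the most abundant of the list over all libraries, although in DMSO 48 h the γ chain FGG was above it, had a value of 0.71 (SE 0.31, adjusted p = 0.405). The FXR target with the lowest adjusted p was C3, complement component 3, named here after its values were seen (1.46, SE 0.35, adjusted p = 0.0653). DESeq2 called C3 (1.46, adjusted p = 0.00422) and APOC2, an apolipoprotein (1.17, adjusted p = 0.0368), in the averaged contrast, and both also at 48 h. Without DMSO 48 h replicate 2, edgeR called C3 in the averaged contrast, together with 1.25% of genes as higher. FGF19, the enteric hormone that represses CYP7A1 and that hepatoma cells can express, is likewise named after its values were seen and stood at 28.8 ± 10.1, 20.5 ± 6.62, 17.9 ± 11.0 and 21.1 ± 4.94 CPM (SD, n = 3) in DMSO 24 h, Molidustat 24 h, DMSO 48 h and Molidustat 48 h. Its lowest value was again in DMSO 48 h replicate 2, at 5.32 CPM. Whether NR0B2 differed from these other targets was not tested.

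**Figure D4:**
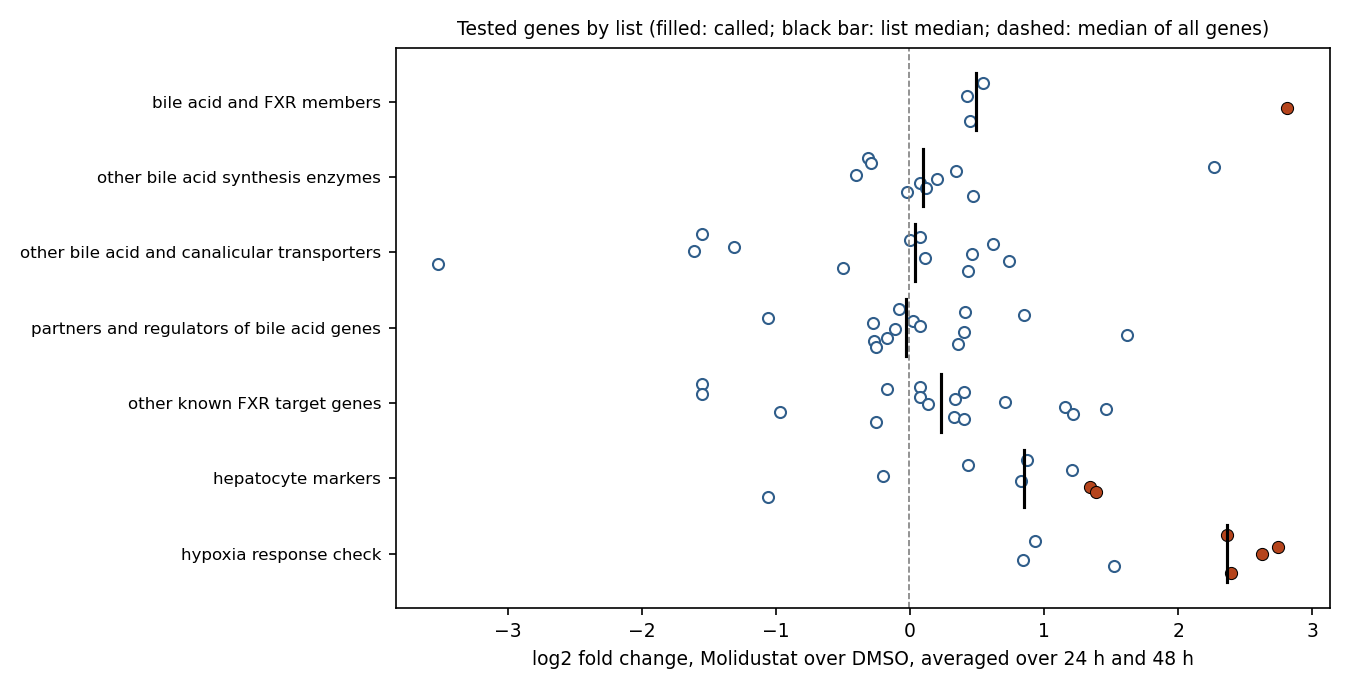
Log2 fold change averaged over both times (x axis) of each tested gene (points) in the bile acid and FXR members, 4 lists of the wider pathway, the hepatocyte markers and the hypoxia-induced genes (rows); filled points were called by edgeR, black bars are list medians and the dashed line is the median over all tested genes (-0.01). NR0B2 is the filled point of the top row, and no gene of the 4 pathway lists is filled.

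SERPINA1, which encodes α1-antitrypsin, and TF, which encodes transferrin, were the 2 of the 8 hepatocyte markers called higher in the averaged contrast (1.34, SE 0.26, adjusted p = 0.0174, and 1.39, SE 0.30, adjusted p = 0.0337, by edgeR), and none was called lower. In that contrast 6 of the 8 had a positive value and 2 a negative one. The negative ones were APOB (-0.20, and -0.46 at 48 h) and HNF4A (-1.06, and -1.88 at 48 h), both with overlap at each time. Without DMSO 48 h replicate 2, HNF4A was -0.05 at 48 h, and APOB was lower there at an unadjusted p under 0.05 by edgeR. The summed level of the 8 markers was 11710, 12280 and 14520 CPM in DMSO 24 h and 17200, 18630 and 21500 CPM in Molidustat 24 h. It was 16240, 8721 and 16130 CPM in DMSO 48 h and 24930, 23080 and 27910 CPM in Molidustat 48 h. SERPINA1 and TF had averaged values of 1.20 and 1.19 without DMSO 48 h replicate 2 and were still called, and the median of the 8 markers at 48 h was 0.69 in place of 1.04. The sums of the groups did not overlap at either time, with or without that library, as with NR0B2, and the part of this shift in the values of NR0B2, CYP27A1 and C3 was not tested. In bulk libraries such as these, a change in the share of cells that express a gene and a change in its RNA per cell cannot be told apart. LYZ (log2 fold change -1.17 at 48 h, adjusted p = 0.175 by edgeR) and SOX9 (-1.97 at 48 h, adjusted p = 0.126) were lower without overlap at 48 h, and DESeq2 called both there, with 1.27% of its genes lower. With DMSO 48 h replicate 2 left out, these values were -1.13 and -1.11 in edgeR. SOX9 was not typical of its list. At 48 h the other 3 tested cholangiocyte markers had positive values (KRT19 1.23, EPCAM 0.96 and SPP1 1.35, adjusted p = 0.324, 0.347 and 0.436 by edgeR), with a list median of 1.10, which became 0.78, 0.62 and 0.92 with a median of 0.70 when that library was left out, and KRT19 was higher without overlap at both times. Of the other 3 tested markers of other liver cells, CD68 (0.25) and PDGFRB (0.93) had positive values and PECAM1 a negative one (-1.19), all with overlap. With LYZ included, the median of this list at 48 h was -0.46. None of the tested genes of either list was called by edgeR in a treatment contrast.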

How the data were processed

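Total RNA of Huh7 cells was sequenced with the QIAseq UPX 3′ kit (3 libraries in each of 4 groups). Per the labels, the authors' notes name bcl2fastq 2.17.1.14, cutadapt 1.9.1, STAR 2.7.9a, HTSeq 0.11.2 and DESeq2 1.26.0 with build GRCh38. The deposited values are raw counts per Ensembl gene, not normalized. The annotation release, the strand setting and any use of molecular identifiers are not given in the sources used here. Symbols and positions came from GENCODE 44, which named 60437 of the 60666 genes. The 5 summary lines of each file (reads outside genes were 17.1% to 50.4%) entered neither library sizes nor tests.

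Counts were fitted with edgeR 4.0.16 (R 4.3.3): TMM factors, filterByExpr with a minimum count of 10 and a minimum total of 15, group means over all 12 libraries, and the quasi-likelihood test, adjusted by Benjamini-Hochberg over 14274 of the 28430 genes with a count. Contrasts were treatment at each time and averaged over both, the interaction, and time within each treatment. Replicates of every group differed by more than sampling noise. The scripts were tested on simulated data. Depth ran from 1499273 to 9179389 counts, and limits from a count of 0 cover counting error only. The alternatives were DESeq2 1.42.0, limma-voom 3.58.1 with quality weights, RLE factors, no filter, each time fitted alone, a replicate block, no fold threshold and each library left out; DESeq2 without DMSO 48 h replicate 2 was added after seeing the data.

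The members and all gene lists were chosen with earlier results of these data known. All 10 members were named; from each pathway list, any gene called, the 2 with the largest absolute averaged change and the most abundant; from the hypoxia list, the 3 with the largest averaged change and any gene called; from each marker list, the most abundant, any called and those at 0. Outside this rule, pathway genes at 0 in all libraries, FGF19, the other tested markers given by name and the genes of counts of 5 or fewer were named after their values were seen.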

Additional observations from a re-analysis of the deposited data

How the results depend on the processing

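Of the members, none was called at 48 h by edgeR, but 1 (NR0B2) was called by DESeq2, by limma-voom with quality weights, without the filter on low counts, and by DESeq2 without DMSO 48 h replicate 2 (added after seeing the data; adjusted p = 0.00359), and 0 to 1 when each library was left out in turn. In the averaged contrast the count was 1 in each alternative that kept all libraries, and 0 to 1 when each was left out, and the cause was not tested. The counts at 24 h, for the interaction and for time within a treatment were 0 under every alternative run. The replicate numbers did not pair the samples (correlation of same-numbered deviations -0.031 to 0.118 at 24 h and -0.054 to 0.05 at 48 h); with a replicate block, NR0B2 had 3.16 averaged (adjusted p = 0.0255) and 3.89 at 48 h (adjusted p = 0.155), and the block changed no call of a member. At 24 h, values near 0 changed sign: CYP27A1 was -0.0807 in limma-voom and -0.34 to 0.32 with a library left out, NR1H4 -0.54 to 0.44 and ABCB4 -0.18 to 3.19; none of these passed the threshold, and the cause was not tested. When each time was fitted alone, NR0B2 had an adjusted p of 0.479 at 24 h and 0.515 at 48 h. SLC27A5 was tested only without the filter or in fits in which it passed it, and BAAT and the members at 0 could not be compared at this depth.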
